A study of Homo sapiens with 6 samples.

Results

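ER-associated degradation (ERAD) was described here through 10 genes of its core machinery, HERPUD1, SEL1L, SYVN1, EDEM1, EDEM2, EDEM3, DERL1, DERL2, DERL3 and OS9. They were taken by gene symbol from a table of 58825 genes, in which each symbol occurred once. RNA was compared between PANC-1 cells that received CMR at 8 µM over 48 h (CMR, 3 libraries) and control PANC-1 cells (CON, 3 libraries). PANC-1 is an established human line from a pancreatic ductal carcinoma. What the control cells received and what the letters CMR stand for are not given in the sources used here. Nothing in the labels says that the libraries of a group are separate cultures, so the p-values rest on a spread among libraries that could be purely technical.

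ERAD removes misfolded proteins from the endoplasmic reticulum (ER): they are recognised in the lumen, drawn back through the ER membrane, tagged with ubiquitin and degraded by the proteasome in the cytosol. The mannosidase-like EDEM proteins trim mannose from misfolded glycoproteins, and the lectin OS9 reads the trimmed glycan. SEL1L hands such clients to the membrane ubiquitin ligase SYVN1, also called HRD1. HERPUD1 and the derlins sit beside SYVN1 in the membrane, and the ATPase VCP pulls clients out. Many genes of this machinery are known targets of the unfolded protein response, through the transcription factors XBP1, ATF6 and, for HERPUD1, ATF4. Secretory cells such as those of the pancreas make heavy use of it.

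The promoters are shown because the known elements of the unfolded protein response lie there. Promoter sequences from RefSeq (GRCh38.p14; 250 bases before to 50 after each start site) matched 8 of the 10 members, not DERL1 and DERL3. They were searched on both strands for the ER stress element ERSE (CCAAT, then 9 bases, then CCACG), ERSE-II (ATTGG, then 1 base, then CCACG), the core TGACGTGG of the unfolded protein response element, and TGATGNAA, the core of the element bound by ATF4. HERPUD1 held an ERSE-II, ATTGGGCCACG, at position -117 from the start site (chr16:56932025-56932035, plus strand), an element known from this very promoter. It also held an ATF4-type core at position -176, read on the opposite strand as TTGCATCA. No other matched member held an exact match to any of these 4 motifs. Only exact matches were counted, here and below, so the search does not show that similar elements are absent. The stretches printed below for HERPUD1 and SEL1L, for example, each hold a sequence 1 base away from ERSE. Among all 35116 promoters, 0.0541% held an ERSE-II, 0.0769% an ERSE, 0.729% the core TGACGTGG and 3.62% the ATF4-type core. The short element CCACG, which is part of both ER stress elements and lies, on the other strand, inside the core TGACGTGG, was present in 6 of the 8 members, against 38.1% of all promoters. CCAAT, the other part of ERSE and, on the opposite strand, of ERSE-II, was also present in 6 of 8, against 34.6%. Of 34 other ERAD genes with a promoter sequence, described below, 27 held CCACG and 12 held CCAAT. Those with CCACG included genes not called in the results below, such as MAN1B1 and NGLY1, so CCACG was not particular to the members. A match is a description of letters and does not show that a factor binds. The 250 bases before the start site follow for HERPUD1 (chr16:56931892-56932141, plus strand), with the ATF4-type core and then ERSE-II in capitals. For SYVN1 (chr11:65134520-65134769, minus strand), SEL1L (chr14:81533854-81534103, minus strand) and OS9 (chr12:57693882-57694131, plus strand), capitals mark CCACG and CCAAT on either strand. SYVN1 and SEL1L had the next largest fold changes after HERPUD1, and OS9 the smallest.
HERPUD1: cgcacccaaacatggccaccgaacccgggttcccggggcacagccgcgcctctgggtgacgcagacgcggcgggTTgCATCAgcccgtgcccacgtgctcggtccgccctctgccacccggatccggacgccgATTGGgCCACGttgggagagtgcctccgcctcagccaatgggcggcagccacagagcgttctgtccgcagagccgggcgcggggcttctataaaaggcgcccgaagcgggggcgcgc
SYVN1: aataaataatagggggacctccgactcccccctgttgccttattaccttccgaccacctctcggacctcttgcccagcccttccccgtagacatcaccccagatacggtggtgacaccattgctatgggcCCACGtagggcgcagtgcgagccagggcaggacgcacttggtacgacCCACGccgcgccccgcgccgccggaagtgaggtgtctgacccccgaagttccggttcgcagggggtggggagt
SEL1L: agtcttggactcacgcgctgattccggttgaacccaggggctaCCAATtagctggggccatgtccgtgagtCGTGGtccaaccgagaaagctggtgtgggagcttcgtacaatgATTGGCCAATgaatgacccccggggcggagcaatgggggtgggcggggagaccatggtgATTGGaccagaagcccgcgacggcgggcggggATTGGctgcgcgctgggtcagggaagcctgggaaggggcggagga
OS9: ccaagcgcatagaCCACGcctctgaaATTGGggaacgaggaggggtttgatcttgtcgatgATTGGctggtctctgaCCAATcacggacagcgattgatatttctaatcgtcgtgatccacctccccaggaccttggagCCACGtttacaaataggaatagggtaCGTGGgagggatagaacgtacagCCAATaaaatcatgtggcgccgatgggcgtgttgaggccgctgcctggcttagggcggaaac

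The libraries held from 51147268 to 70129221 counts, the CMR libraries being the deeper ones. Log expression across genes correlated with r from 0.966 to 0.971 between libraries of a group and from 0.914 to 0.939 between groups. Genes are not independent replicates. The ductal keratin gene KRT19 (109 to 717 normalised CPM over the 6 libraries), KRT8, KRT18 and VIM were abundant. The keratin gene KRT7 was low, at 2.61 to 5.94 normalised CPM over the 6 libraries. SOX9 averaged 38.4 ± 22.9 normalised CPM in CMR libraries and 50.7 ± 39.6 in CON libraries (SD, n = 3 each). CDKN2A, which this line is known to have lost, had at most 4 counts in a library. Of the acinar, endocrine, leukocyte and endothelial markers, CPA1, INS and GCG were at 0 in all 6 libraries, and the highest of the others, PECAM1, reached 23 counts. KRT19, KRT7, KRT8, KRT18 and VIM were called lower in CMR-treated cells, SOX9 was not called, and the acinar gene PRSS1 was called higher, with at most 17 counts in a CMR library and 0 in every CON library. PRSS1 passed the filter on low counts through its CMR counts only, so its call is no support for a rise. The part of these marker genes in the results below was not tested.

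ERAD genes rose together in CMR-treated cells. Of the 10 members, 9 had enough counts to be tested and all 9 rose, by edgeR's quasi-likelihood test at a Benjamini-Hochberg adjusted p under 0.05 over 19200 tested genes, of which 20.5% were called higher and 38.6% in either direction. The calls over all genes were 3928 higher and 3476 lower, or 3250 higher and 4324 lower with upper-quartile scaling, under which the 9 members were called higher as well. The median log2 fold change of the 9 tested members was 1.16, against -0.01 over all tested genes. 7 of them rose by more than 2-fold, a call made for 9.87% of tested genes. In all 9 tested members the lowest CMR library was above the highest CON library in normalised CPM (read counts scaled to a common library size), which held for 27.3% of tested genes. The untested DERL3 was apart as well, but only by 0.153 against 0.122 normalised CPM. In RNA from whole cultures, a larger share of cells expressing a gene and more RNA per cell cannot be told apart.

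**Figure D1:**
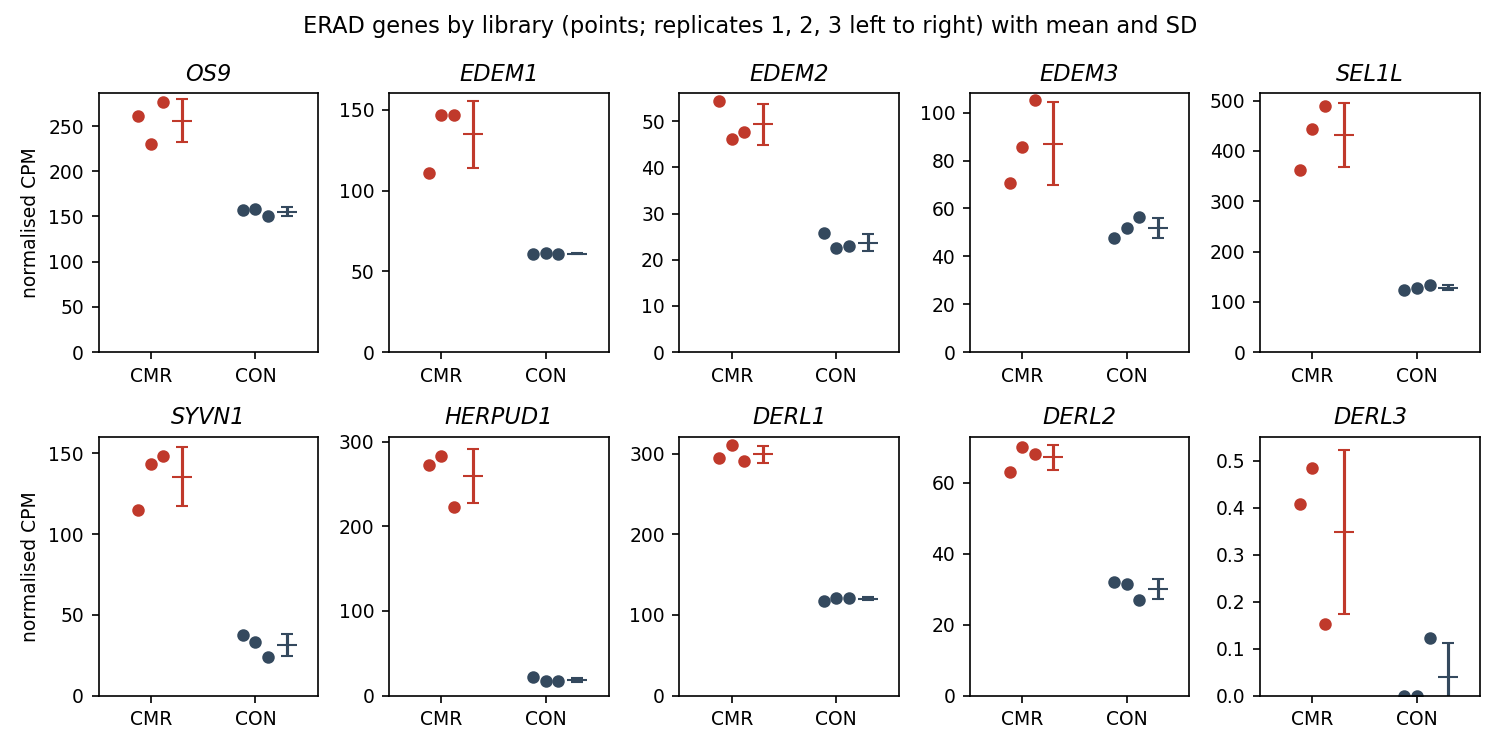
Normalised CPM (read counts scaled to a common library size by TMM) of each of the 10 ERAD genes in the 3 CMR and the 3 CON libraries. Points are libraries, bars give mean and SD. CMR points lie above CON points in every panel, and the DERL3 axis ends below 1 CPM.

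OS9 and the EDEM genes act on clients in the lumen, where the pathway starts. OS9 (ENSG00000135506, chromosome 12, 57693955 to 57721557, plus strand), which had the smallest fold change of the tested members, had 261, 230 and 277 normalised CPM in CMR libraries, against 158, 159 and 150.2 in CON libraries. Its log2 fold change was 0.72 ± 0.09 (SE; edgeR adjusted p = 0.00101), or 1.65-fold. The groups were apart, and CMR replicate 2 was the lowest treated library.

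The 3 EDEM genes, whose products cut mannose residues from glycoproteins that failed to fold, all rose. EDEM1 (chromosome 3, 5187646 to 5219958, plus strand) had 111, 147 and 147 normalised CPM in CMR libraries, against 60.5, 61.1 and 61.0 in CON libraries. CMR replicate 1 was lower than the other treated libraries, while the CON libraries were nearly equal. The log2 fold change of EDEM1 was 1.15 ± 0.12 (SE; edgeR adjusted p = 0.000589). EDEM2 (chromosome 20, 35115364 to 35147336, minus strand), which is known to begin the trimming, had 54.4, 46.0 and 47.6 normalised CPM in CMR libraries, against 25.7, 22.5 and 22.9 in CON libraries. Here CMR replicate 1 was the highest, so the order of treated libraries was not that of EDEM1. Its log2 fold change was 1.06 ± 0.12 (SE; edgeR adjusted p = 0.000634). EDEM3 (chromosome 1, 184690237 to 184754907, minus strand), which trims further mannose residues, had 70.5, 85.6 and 105 normalised CPM in CMR libraries, against 47.7, 51.9 and 56.2 in CON libraries. The treated libraries of EDEM3 were spread, with replicate 1 the lowest, and all lay above the controls. Its log2 fold change was 0.74 ± 0.16 (SE; edgeR adjusted p = 0.00844).

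The adaptor and the ligase that it serves both rose by more than 3-fold. SEL1L (ENSG00000071537, chromosome 14, 81471547 to 81533853, minus strand) had 362, 444 and 488 normalised CPM in CMR libraries, against 123, 128 and 133 in CON libraries. CMR replicate 1 was the lowest treated library and still more than every control. The log2 fold change of SEL1L was 1.75 ± 0.12 (SE; edgeR adjusted p = 0.000119), or 3.37-fold. SYVN1 (ENSG00000162298, chromosome 11, 65121780 to 65134532, minus strand), the ubiquitin ligase itself, had 115, 143 and 149 normalised CPM in CMR libraries, against 37.7, 32.9 and 24.1 in CON libraries. CON replicate 3 was the lowest control. The log2 fold change of SYVN1 was 2.10 ± 0.19 (SE; edgeR adjusted p = 0.000288), or 4.29-fold. The span of SYVN1 overlaps MRPL49 on the other strand over 5189 bases and FAU on its own strand over 374 bases. MRPL49 had 72.0% of the mean count of SYVN1 and FAU 194%. Their log2 fold changes were -0.09 (edgeR adjusted p = 0.927) for MRPL49 and 0.31 (edgeR adjusted p = 0.0288) for FAU. Whether counting used strand is not given in the sources used here, so reads of the overlap may be shared.

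Among the membrane partners of the ligase, HERPUD1 had the largest change of all members. HERPUD1 (ENSG00000051108, chromosome 16, 56932142 to 56944864, plus strand), a ubiquitin-like domain protein that organises the ligase complex, had 18005, 19253 and 14595 counts in CMR libraries, against 1131, 906 and 1153 in CON libraries. In normalised CPM these were 273, 283 and 223 in CMR libraries, against 21.6, 17.1 and 17.6 in CON libraries. CMR replicate 3 was the lowest treated library and more than 10 times the highest control, CON replicate 1. The log2 fold change was 3.79 ± 0.15 (SE; edgeR adjusted p = 2.69e-05), at rank 140 from the top among 19200 tested genes. SYVN1 was at rank 648, SEL1L at 987 and OS9 at 3925.

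The derlins, rhomboid-like membrane proteins through which clients leave the lumen, divided into a pair of well expressed genes and a scarcely detected one. DERL1 (chromosome 8, 123013170 to 123042302, minus strand) had 295, 311 and 291 normalised CPM in CMR libraries, against 118, 121 and 122 in CON libraries. Both groups were tight, and the log2 fold change of 1.31 ± 0.07 had the smallest SE of the members (edgeR adjusted p = 6.23e-05). DERL1 overlaps TBC1D31 on the other strand over 335 bases, a gene with 12.8% of its mean count. DERL2 (chromosome 17, 5471254 to 5486178, minus strand) had 63.2, 70.1 and 68.2 normalised CPM in CMR libraries, against 32.0, 31.5 and 26.9 in CON libraries. Its log2 fold change was 1.16 ± 0.11 (SE; edgeR adjusted p = 0.000354). DERL3 (chromosome 22, 23834503 to 23839128, minus strand), known as the derlin of highly secretory cells, had 27, 33 and 10 counts in CMR libraries, against 0, 0 and 8 in CON libraries. It did not pass the filter on low counts and was not tested. A count of 0 allows up to 3 counts, or 0.0587 CPM in CON replicate 1 and 0.0580 CPM in CON replicate 2. CMR replicate 3 and CON replicate 3 had nearly the same level of DERL3, at 0.153 and 0.122 normalised CPM. SMARCB1, on the other strand, overlaps DERL3 over 3506 bases with a mean count of 3446, against 13 for DERL3, so stray reads from that gene were not separable here.

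**Figure D2:**
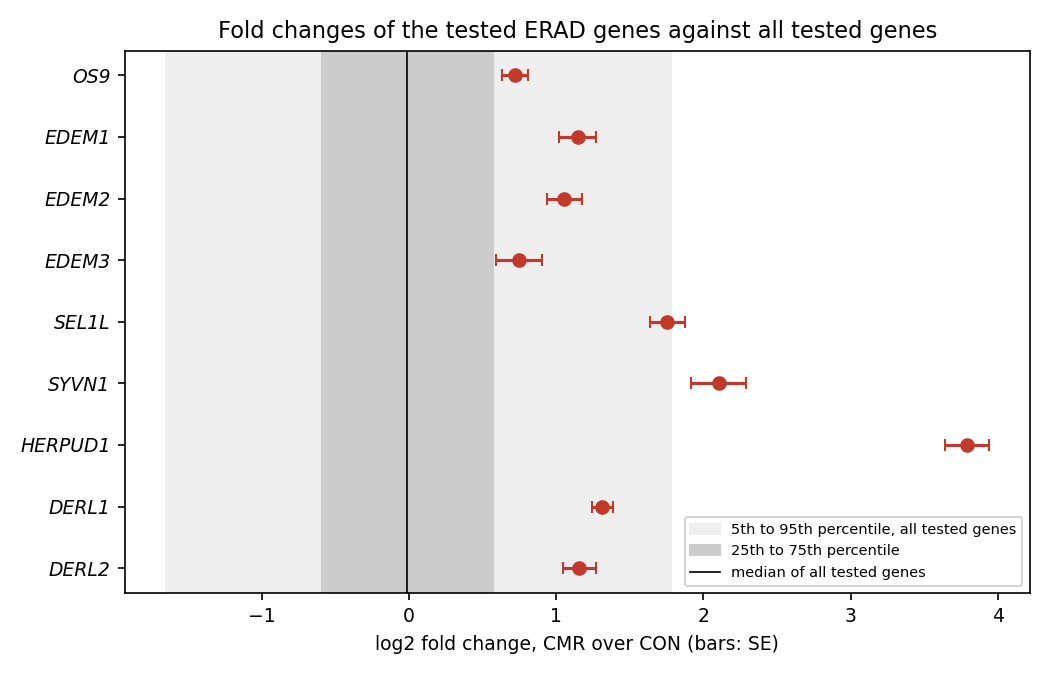
Log2 fold change of CMR over CON (x axis, bars give SE) for the 9 tested ERAD genes. The shaded bands give the spread of all 19200 tested genes, whose 25th and 75th percentiles are -0.59 and 0.57. HERPUD1, at 3.79, and SYVN1, at 2.10, lie beyond the 95th percentile of 1.78.

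Proportions between members were then compared inside each library. The ratio of counts of a pair of genes inside each library does not depend on how libraries are scaled, and 10 pairs were compared by a two-sided exact permutation test over the 6 libraries. With 3 libraries against 3 the smallest p is 0.1, and the smallest after Benjamini-Hochberg adjustment over the pairs was 0.25, so no pair could be called. The log2 ratio of HERPUD1 to its paralog HERPUD2 averaged 2.21 ± 0.15 in CMR libraries and -0.98 ± 0.19 in CON libraries (SD, n = 3 each; exact p = 0.1). The 2 genes thus stood on opposite sides of equality in the 2 groups, by counts that are not corrected for length. HERPUD1 against SYVN1 gave a log2 ratio of 0.94 ± 0.33 in CMR libraries and -0.73 ± 0.25 in CON libraries (SD, n = 3 each; exact p = 0.1). OS9 against ERLEC1, the other ER lectin of this pathway, gave a log2 ratio of -0.13 ± 0.21 in CMR libraries and 0.75 ± 0.01 in CON libraries (SD, n = 3 each; exact p = 0.1). EDEM1 against EDEM3 gave 0.64 ± 0.15 in CMR libraries and 0.23 ± 0.11 in CON libraries (SD, n = 3 each; exact p = 0.1). In these 4 pairs the groups did not overlap, and how often this holds for other gene pairs was not computed. Among single tested genes, CMR lay wholly above CON for 27.3% and wholly below for 26.6%. The first pairs named both hold HERPUD1, so they are not separate observations.

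The other 6 pairs overlapped. SEL1L and SYVN1, which form a single complex, had a log2 count ratio of 1.67 ± 0.04 in CMR libraries and 2.04 ± 0.39 in CON libraries (SD, n = 3 each; exact p = 0.2). The treated libraries were the closer to each other, and CON replicate 3, at 2.46, stood above the rest. DERL2 to DERL1 gave -2.16 ± 0.06 in CMR libraries and -2.00 ± 0.16 in CON libraries (SD, n = 3 each; exact p = 0.3). The ratios of EDEM1 and of EDEM3 to EDEM2 differed by 0.08 ± 0.22 and -0.33 ± 0.26 (CMR minus CON, SE). Those of DERL3 to DERL1 and DERL2 differed by 2.51 ± 1.34 and 2.66 ± 1.43, but in CON replicates 1 and 2, where DERL3 had 0 counts, the ratio is set by the 0.5 added to each count. With FPKM + 0.1 the differences turned to -0.58 and -0.42, so no direction is given for DERL3 against the other derlins.

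Levels were compared between genes only per length, as deposited FPKM (fragment counts scaled to gene length and sequencing depth). In CMR-treated cells HERPUD1 was first with 41.9 ± 5.69 FPKM (SD, n = 3), followed by OS9 with 40.5 ± 3.65, SEL1L with 36.9 ± 4.83 and DERL1 with 35.1 ± 1.37. Neighbours among these 4 genes overlapped. EDEM2 with 21.4 ± 2.30, SYVN1 with 20.1 ± 2.35 and EDEM1 with 16.3 ± 2.25 came next. EDEM3 with 9.11 ± 1.66 and DERL2 with 8.59 ± 0.34 followed. EDEM2 overlapped with SYVN1 in CMR-treated cells, SYVN1 with EDEM1, and EDEM3 with DERL2. In CON cells the order was OS9 with 25.9 ± 0.83 FPKM, DERL1 with 14.9 ± 0.27, SEL1L with 11.5 ± 0.44, EDEM2 with 10.9 ± 0.81, EDEM1 with 7.79 ± 0.04, EDEM3 with 5.75 ± 0.46, SYVN1 with 4.95 ± 1.09, DERL2 with 4.05 ± 0.39 and HERPUD1 with 3.18 ± 0.42. SEL1L overlapped with EDEM2 there, EDEM3 with SYVN1, SYVN1 with DERL2, and DERL2 with HERPUD1. HERPUD1 thus had rank 1 of 10 in CMR-treated cells and rank 9, before DERL3, in CON cells. DERL3 was at most 0.0977 FPKM in a CMR library and 0.0192 FPKM in a CON library. The length implied by the deposited FPKM ran parallel to the summed exons of every annotated transcript in GENCODE release 29. It was 1.17 (DERL1) to 1.19 (DERL2) times that sum in the members other than DERL3. The exon sums themselves ran from 1919 bases for EDEM2 to 9559 for SEL1L. Per length of the longest coding transcript, an alternative chosen after seeing the data, HERPUD1 had rank 3 with CMR, behind OS9 and DERL1, and rank 9 in CON.

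**Figure D3:**
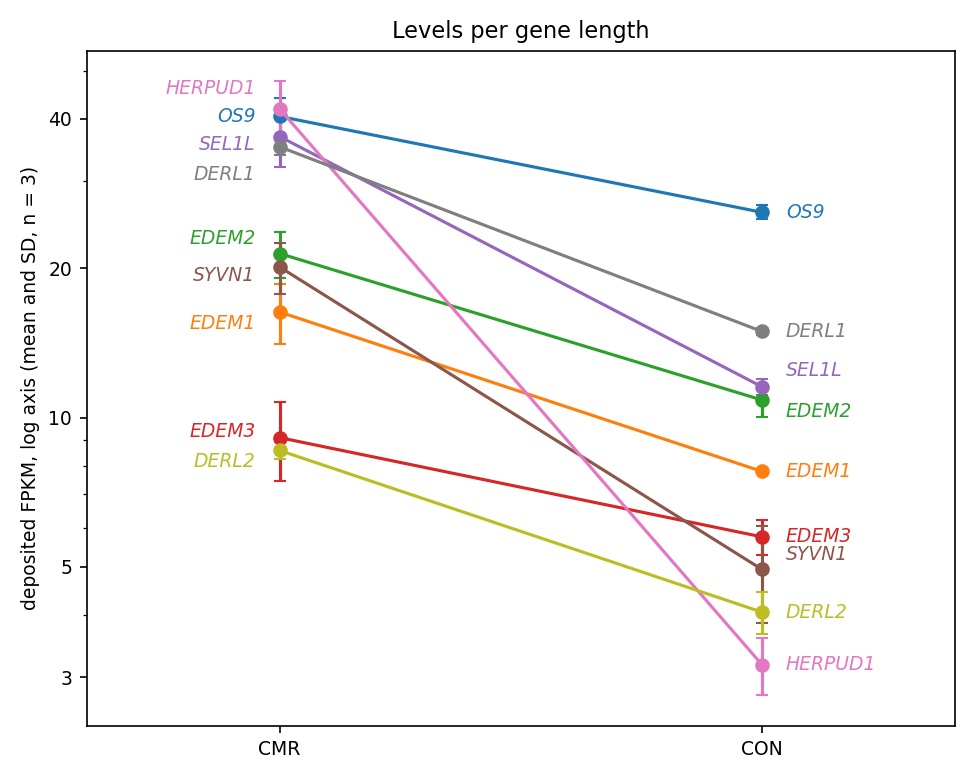
Deposited FPKM (log axis; mean and SD, n = 3 each) of 9 ERAD genes in CMR and CON cells, with a line joining the means of each gene. DERL3, below 0.1 FPKM, is left out. HERPUD1 is the lowest of these 9 genes in CON, at 3.18 FPKM, and the highest in CMR, at 41.9 FPKM, just above OS9 at 40.5.

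Shares within the derlin and EDEM families were taken per length. Summed over the 3 derlins, FPKM averaged 43.8 ± 1.57 in CMR libraries and 19.0 ± 0.34 in CON libraries (SD, n = 3 each), 2.31-fold more with CMR. DERL1 made up 80.2 ± 0.64% of that sum in CMR libraries and 78.6 ± 1.76% in CON libraries (SD, n = 3 each; exact permutation p = 0.3). DERL3 made up 0.156 ± 0.082% in CMR libraries and 0.035 ± 0.059% in CON libraries (SD, n = 3 each; exact permutation p = 0.2). Summed over the 3 EDEM genes, FPKM averaged 46.9 ± 1.69 in CMR libraries and 24.4 ± 0.45 in CON libraries (SD, n = 3 each), 1.92-fold more with CMR. EDEM2 made up the largest part, 45.8 ± 6.28% in CMR libraries and 44.5 ± 2.63% in CON libraries (SD, n = 3 each; exact permutation p = 1). EDEM3 made up 19.4 ± 2.83% in CMR libraries and 23.6 ± 2.10% in CON libraries (SD, n = 3 each; exact permutation p = 0.2). In every one of the 6 shares compared the groups overlapped, and the smallest p adjusted over them was 0.45 by the exact permutation test. As shares of counts, without length, EDEM1 held 49.6 ± 2.87% in CMR libraries and 44.6 ± 0.91% in CON libraries (SD, n = 3 each; exact permutation p = 0.1) and did not overlap. EDEM3 held 31.9 ± 2.79% of the counts in CMR libraries and 38.0 ± 2.27% in CON libraries (SD, n = 3 each; exact permutation p = 0.1) and did not overlap either.

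**Figure D4:**
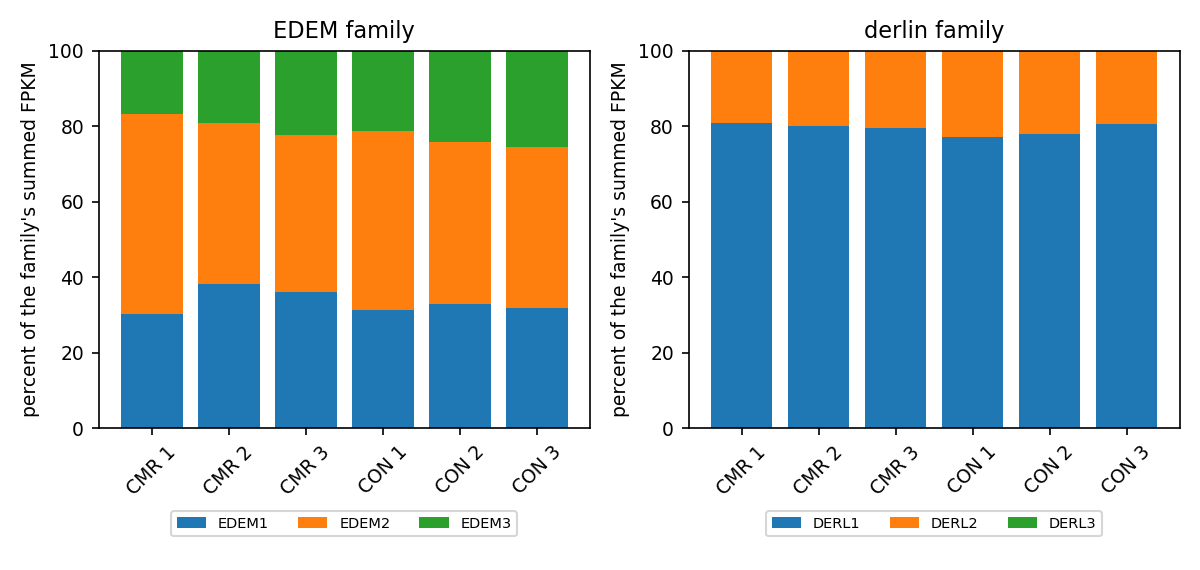
Percent of the summed FPKM of the EDEM genes (left) and the derlins (right) held by each gene, in each CMR and CON library. DERL1 holds 77.2 to 80.9% of the derlin sum, and DERL3 is too small to be seen.

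Beyond the 10 members, 48 other ERAD genes were followed by role. All 48 were tested; 27 rose, 4 fell and 17 were not called, where 20.5% of all tested genes were called higher and 18.1% lower. Their median log2 fold change was 0.38, against -0.01 over all tested genes.

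The lumenal helpers rose in 4 of 4 genes. DNAJB9, a co-chaperone of the chaperone BiP, averaged 199 ± 32.2 normalised CPM with CMR and 13.9 ± 0.27 in CON (SD, n = 3 each; log2 fold change 3.84 ± 0.14 SE, edgeR adjusted p = 2.69e-05), beside a log2 fold change of 3.79 for HERPUD1. SDF2L1, an ER protein that works with BiP co-chaperones, rose 4.04-fold. Its promoter held the only other ERSE-II, read as CGTGGACCAAT at position -188 (chr22:21642114-21642124), among 34 of these 48 genes with a promoter sequence. Of the same 34, DNAJC10, TXNDC11, UBE2J1 and VCP held the core TGACGTGG. Among genes that read or remove glycans, ERLEC1 rose 3.06-fold, while the log2 fold changes of the mannosidase gene MAN1B1 and of NGLY1, which encodes the cytosolic enzyme that removes glycans, were 0.10 ± 0.12 and 0.12 ± 0.11 (SE; edgeR adjusted p = 0.572 for MAN1B1 and 0.455 for NGLY1).

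Among the membrane adaptors, 7 of 12 rose and 1 fell. FAM8A1, which assembles with SYVN1, averaged 187 ± 54.4 normalised CPM with CMR and 28.2 ± 1.28 in CON (SD, n = 3 each; log2 fold change 2.73 ± 0.21 SE, edgeR adjusted p = 0.000183). SELENOS, a selenoprotein that joins derlins to VCP, rose 4.44-fold, and HERPUD2 rose 1.51-fold. UBE2J1, the ubiquitin-conjugating enzyme that works with SYVN1, averaged 280 ± 26.3 normalised CPM with CMR and 95.7 ± 3.30 in CON (SD, n = 3 each; log2 fold change 1.55 ± 0.09 SE, edgeR adjusted p = 7.64e-05). Its relative UBE2J2 was not called (log2 fold change 0.18 ± 0.14 SE, edgeR adjusted p = 0.374), and AUP1, which recruits another conjugating enzyme to lipid droplets and the ER, rose 1.34-fold. Of 9 other ubiquitin ligases of the ER, 2 rose, 2 fell and 5 were not called, a count close to the share of all genes. RNF139 rose 1.77-fold, and RNF145 was 1.86-fold lower with CMR.

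The ATPase gene VCP itself averaged 778 ± 19.0 normalised CPM with CMR and 693 ± 13.8 in CON (SD, n = 3 each); its log2 fold change of 0.17 ± 0.06 was not called (edgeR adjusted p = 0.0729), although the groups did not overlap. Of the 12 genes for VCP, its cofactors and shuttle factors, 8 rose and 0 fell. The deubiquitinase genes ATXN3 and YOD1 rose by 2.37-fold and 1.89-fold, and NPLOC4, a core cofactor of VCP, was not called (log2 fold change -0.13 ± 0.08 SE, edgeR adjusted p = 0.252). Of 4 genes of the BAG6 complex and its partners, which hold extracted clients in the cytosol, 3 rose and 1 fell. SGTA rose 1.49-fold, and UBL4A was 1.53-fold lower with CMR.

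**Figure D5:**
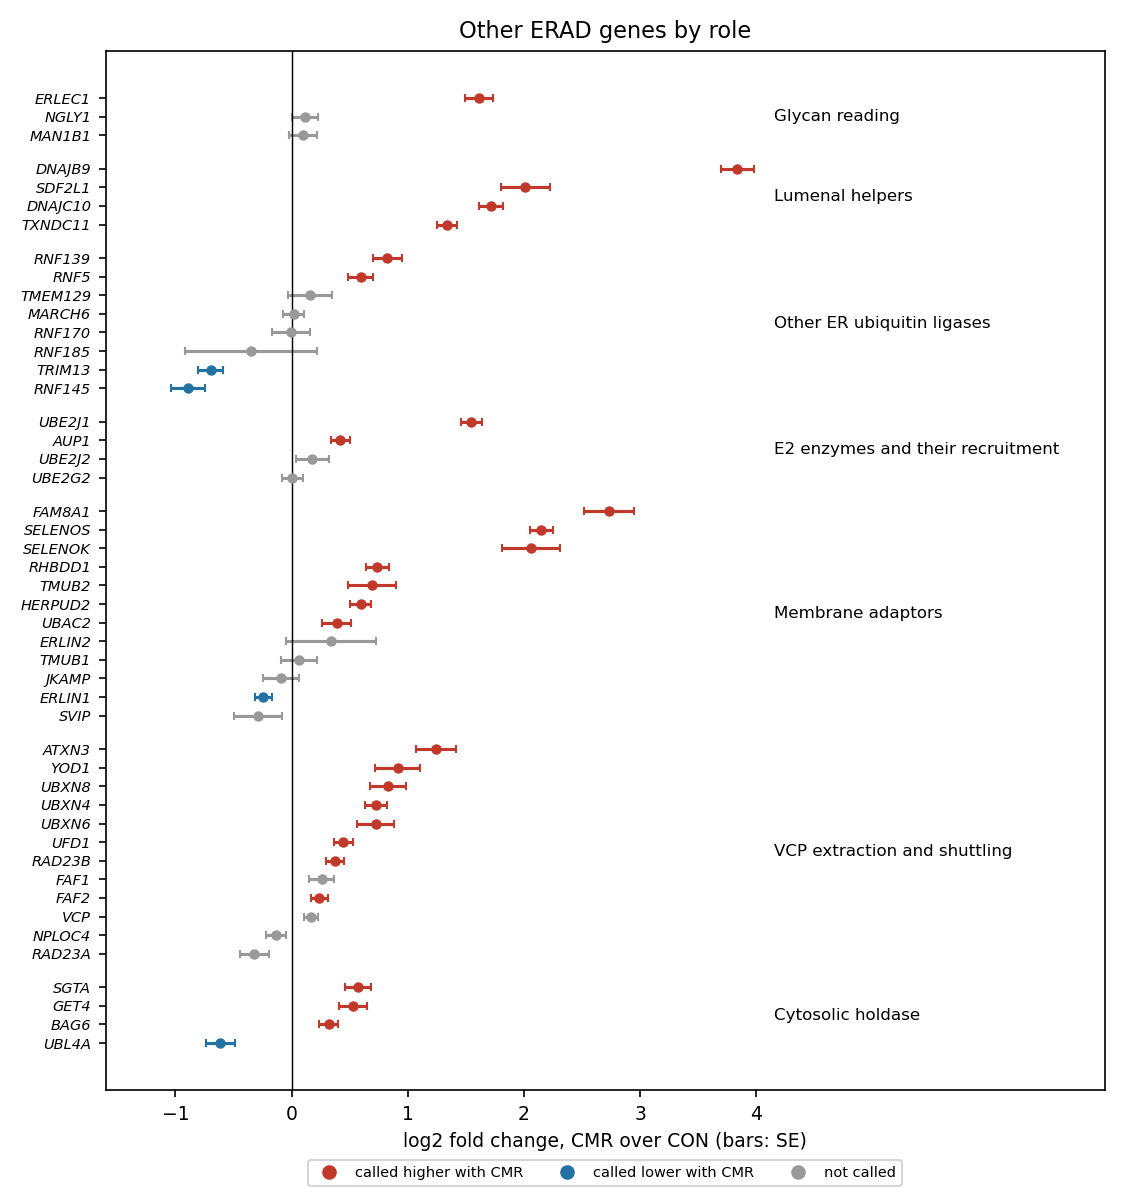
Log2 fold change of CMR over CON (x axis, bars give SE) of 47 of the 48 other ERAD genes, grouped by role. Red points were called higher, blue ones lower and grey ones not called; the lumenal helpers lie at 1.34 or above, while the other ubiquitin ligases lie on both sides of 0.

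The genes most like HERPUD1 in their course over the 6 libraries were HSPA5, OSGIN1, ULBP1, NUPR1 and DNAJB9, in that order. Likeness was the distance between log2 CPM values, each relative to the gene's own mean, over the 7146 tested genes that averaged 5 FPKM or more in their higher group, and it ran from 0.58 for HSPA5 to 0.63 for DNAJB9. With 3 libraries in each group, it is set mostly by the size of the difference between groups. HSPA5, the ER chaperone BiP, had a log2 fold change of 3.52 ± 0.07, and ULBP1, a cell surface ligand of a natural killer cell receptor, one of 3.51 ± 0.19 (SE; edgeR adjusted p = 5.67e-06 for HSPA5 and 6.23e-05 for ULBP1).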

How the data were processed

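RNA of 3 CMR and 3 CON samples of PANC-1 cells was poly(A)-selected and sequenced as paired ends, per the labels' protocols, whose text also names adipose tissue and a poly(A)- fraction that no other label mentions. The deposited table gives counts as whole numbers, not normalized, per the file headers; which counter the authors used is not given in the sources used here. Its FPKM values, also the authors', are scaled to length and depth and list a gene without counts at 0.0001. The tools named in the submitters' processing notes are StringTie 1.3.0, HISAT2 2.0 and Bowtie 0.12.2. The build named there, mm8, is a mouse one, while identifiers and coordinates are human (GRCh38). Of 58552 shared genes, 81.2% have the coordinates of GENCODE release 29. Of the 10 members only 2 have exactly those coordinates, and the largest difference is 633 bases, for DERL2. Coordinates are those of the table.

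Counts were tested with edgeR 4.0.16 (R 4.3.3): TMM scaling, filterByExpr (minimum count 10, minimum total 15; 19200 genes kept), quasi-likelihood test, Benjamini-Hochberg adjustment over all genes kept, threshold 0.05. The SE of a log2 fold change is its size divided by the root of the F statistic. The same edgeR steps were also run on simulated counts, which covers neither the alternatives nor the promoter search. Pair ratios used counts + 0.5. Floors cover counting error only. Members and lists were chosen with earlier results of these data known. Named genes were all members, HERPUD2, up to 2 called genes of each role with the largest change, the 5 genes most like HERPUD1 and genes overlapping a member with at least 10% of its count; MAN1B1, NGLY1, UBE2J2, VCP, NPLOC4 and the genes named for a promoter motif or a lost call were added after their values were seen. Alternatives were other scalings and filters, DESeq2 1.42.0, limma 3.58.1 on log2(FPKM + pseudocount), a replicate block, thinning and leaving out each library. The values of 1 gene of the wider list are not reported here. Figures used matplotlib 3.10.9.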

Additional observations from a re-analysis of the deposited data

How the results depend on the processing

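The 9 tested members were called higher under all 16 alternatives, with the log2 fold change of HERPUD1 between 3.36 and 3.90, and that of EDEM3 between 0.57 and 0.87. The count of members above 2-fold was less stable. The lowest log2 fold changes of EDEM1, EDEM2 and DERL2 were 0.97, 0.92 and 0.93, which is under 2-fold. Without CON replicate 3, which held all control counts of DERL3, DERL3 passed the filter through its CMR counts only and was called (edgeR adjusted p = 0.0240). Leaving out that library left controls without a single count, so that call is no support for a rise of DERL3. DERL3 was tested and not called with no filter on low counts, without CMR replicate 3, without CON replicate 1 and without CON replicate 2 (edgeR adjusted p = 0.182, 0.136, 0.218 and 0.216). The 48 other genes gave 22 to 28 called higher and 3 to 5 lower. Of the called ones, ERLIN1, UBAC2, TMUB2, FAF2, BAG6 and GET4 lost their call under 6, 11, 10, 11, 7 and 1 of 16 alternatives. Their edgeR adjusted p went up to 0.121, 0.135, 0.105, 0.246, 0.107 and 0.0517. Upper-quartile scaling put the median over all genes at -0.14 on the log2 scale, and MAN1B1 and NGLY1 turned to -0.030 and -0.012; the cause was not tested. With FPKM + 0.1 in place of counts, the log2 ratio of DERL3 to DERL1 was -0.58 and that to DERL2 -0.42 (CMR minus CON), since the added 0.1 exceeds every DERL3 value. With the replicate number as a block, 9 members and 24 other ERAD genes were called higher and 3 lower, with 3582 genes higher and 3155 lower in all. Same-numbered libraries of the groups correlated in their deviations with r from 0.034 to 0.052, which does not pair them; every library correlated best with its own number. Depth limits what can be said of DERL3. Having 3 libraries per group limits the exact tests.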
